A study of Mus musculus with 6 samples.

Results

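The colony-stimulating factors are the cytokines that direct the making, survival and activity of macrophages and granulocytes. The 9 genes described here are all those of the deposited tables, which list 21936 genes, whose symbol names such a factor, the interleukin Il34 or one of their receptors. Of these, 4 encode ligands (Csf1, Il34, Csf2 and Csf3) and 5 encode receptor chains (Csf1r, Csf2ra, Csf2rb, Csf2rb2 and Csf3r).

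CSF1 and IL-34 both signal through CSF1R, a receptor tyrosine kinase on which most tissue macrophages depend. CSF2, also called GM-CSF, binds the chain made from Csf2ra and then recruits the signalling chain made from Csf2rb, the beta common chain, which interleukin-3 and interleukin-5 receptors also use. The mouse has a near copy, Csf2rb2, whose product works with the interleukin-3 receptor alone. CSF3, also called G-CSF, acts through CSF3R on neutrophils and their precursors, and monocytes carry that receptor too.

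RNA was sequenced from sorted macrophages of mice kept on a high-fat diet for 4 months. The 3 libraries labelled CKO came from animals with ALKBH5flox/flox together with Lyz2-Cre on an APOE-/- background, and the 3 labelled WT from APOE-/- animals with ALKBH5flox/flox and no Cre. By their labels, both groups therefore shared the loxP-flanked Alkbh5, the lack of Apoe and the diet. Lyz2-Cre acts in macrophages, monocytes and neutrophils alike, although the labels call the knockout specific to macrophages, and ALKBH5 is an enzyme that removes N6-methyladenosine from RNA. The age of the animals, the tissue, and whether a library pooled animals are not given in the sources used here. Whether replicate libraries stem from different animals is not stated there either, so each p-value reflects only how much these libraries vary, and that variation may be technical.

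The libraries held 15422154 to 18418903 reads assigned to genes. Alkbh5 went against the labels, at 9.15, 8.61 and 8.50 FPKM (reads scaled by gene length and by the assigned reads of the library) in the libraries labelled CKO and 3.77, 3.95 and 3.88 FPKM in those labelled WT, a difference of 1.00 on the log2 scale (limma adjusted p = 4.78e-09). Counts over the whole gene cannot show whether an exon was missing. Apoe, labelled as null throughout, read 89.6, 97.3 and 98.1 FPKM in the libraries labelled CKO and 1665, 1632 and 1607 FPKM in those labelled WT. Every direction given here is therefore one between labels, and the genotype behind a label was not established. Macrophage markers were abundant in every library: the summed level of 10 markers ran from 9030 to 9439 FPKM in the libraries labelled CKO and from 16584 to 18516 FPKM in those labelled WT. Lyz2 made up most of that sum, and the other 9 markers summed to 2599 to 2642 FPKM in the libraries labelled CKO and to 2200.0 to 2285 FPKM in those labelled WT, with 5 of the 10 higher and 5 lower.

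Of the 9 genes, 7 passed the filter of at least 1 FPKM in at least 3 libraries, and all 7 were called at a limma adjusted p under 0.05. Csf1, Csf3, Csf1r, Csf2rb and Csf2rb2 were higher in the libraries labelled CKO, and Csf2ra and Csf3r were lower. Calls were the rule in these libraries: among all 9953 genes tested 81.1% were called, 30.5% higher and 50.5% lower. The groups did not overlap for any of the 7 genes, as for 82.5% of all genes tested. What sets the genes apart from each other is therefore the direction and the size of the change more than the call itself. Csf2 and Il34 stayed under the filter in both groups.

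The bases upstream of 3 of these genes are shown because each holds a match to a searched motif and their transcripts changed in different directions. RefSeq windows on build GRCm38.p6, the genome also known as mm10, were found for 5 of the 9 genes (Csf1, Csf2, Csf2ra, Csf2rb2 and Csf3r). Each was searched on both strands over 250 bases upstream of the RefSeq start for the ETS core GAGGAA, which PU.1 can bind, for TGANTCA of AP-1, TTGCNNAA of C/EBP, TTCNNNGAA of STAT factors and the NF-kB consensus. Matches within the printed bases are in capitals.
Csf1: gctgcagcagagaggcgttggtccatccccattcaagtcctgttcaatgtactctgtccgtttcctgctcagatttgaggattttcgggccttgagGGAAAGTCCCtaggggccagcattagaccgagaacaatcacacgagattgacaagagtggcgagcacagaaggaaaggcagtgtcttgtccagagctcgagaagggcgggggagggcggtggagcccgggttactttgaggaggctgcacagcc
Csf2rb2: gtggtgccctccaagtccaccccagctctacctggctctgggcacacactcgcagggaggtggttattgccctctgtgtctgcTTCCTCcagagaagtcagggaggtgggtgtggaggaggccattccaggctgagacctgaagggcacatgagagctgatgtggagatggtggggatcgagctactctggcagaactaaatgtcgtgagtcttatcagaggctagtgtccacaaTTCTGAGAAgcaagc
Csf3r: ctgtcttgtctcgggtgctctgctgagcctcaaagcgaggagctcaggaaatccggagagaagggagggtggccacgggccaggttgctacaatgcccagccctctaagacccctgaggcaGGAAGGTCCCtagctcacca
The Csf1 stretch is chr3:107760470-107760719 on the minus strand, the Csf2rb2 stretch chr15:78305722-78305971 on the minus strand, and the Csf3r stretch chr4:126024409-126024549 on the plus strand. The Csf3r stretch is 141 bases long because the start listed in the deposited tables lies 109 bases upstream of the RefSeq start.

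The capitals in Csf1, a gene that rose, mark 1 NF-kB match that begins 154 bases before the start. Those in Csf3r, a gene that fell, also mark an NF-kB match, 129 bases before the RefSeq start. NF-kB matches were present in 7.25% of all 32851 windows of this length. In Csf2rb2, which rose, the capitals mark the ETS core, written on the other strand as TTCCTC and beginning 167 bases before the start, and a STAT match 15 bases before the start. The ETS core was present in 23.3% and the STAT letters in 7.02% of all windows. Csf3r held 1 further ETS core 86 bases before the RefSeq start, past the printed stretch, and Csf2ra held 2 such cores, at 14 and 8 bases, and no other match. Csf2, which is not shown, held 1 C/EBP match, and no window of the 5 held the AP-1 letters. The listed start of Csf2 lies 232 bases downstream of the RefSeq start, so the bases just before that listed start were not searched. A match of letters was thus present upstream of genes that rose and of genes that fell, and none of these matches was tested for binding.

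Among the ligands, Csf1 rose and was the most abundant. Csf1, the main growth factor of macrophages, read 12.3, 11.6 and 11.3 FPKM in the libraries labelled CKO, against 2.47, 2.35 and 1.88 FPKM in those labelled WT (gene ENSMUSG00000014599, chromosome 3, 107741048 to 107760469). Every library labelled CKO was far above every library labelled WT, and the lowest of the WT libraries was replicate 3. The mean was 11.8 ± 0.506 FPKM in libraries labelled CKO and 2.23 ± 0.314 FPKM in those labelled WT (SD, n = 3 each), a ratio of 5.27. On the log2(FPKM + 1) scale, which understates changes of low genes, the difference was 1.99 (SE 0.072, limma adjusted p = 2.88e-10), above 96.7% of all genes tested. On recovered reads limma voom gave 2.40. By level it stood at place 3542 among tested genes in the libraries labelled CKO and at place 8438 in those labelled WT.

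Csf3 was detected in the libraries labelled CKO alone. This gene (ENSMUSG00000038067, chromosome 11, 98701263 to 98703629) encodes G-CSF, the factor that raises neutrophil output from bone marrow. It read 5.58, 6.20 and 5.57 FPKM in the libraries labelled CKO, from 135, 135 and 140 reads, and had 0 reads in each of the 3 libraries labelled WT. A count of 0 allows up to 3 reads a library, which is 0.115 to 0.127 FPKM at this length, so the level was at least 48.0-fold higher in the libraries labelled CKO than that floor. The difference on the log2(FPKM + 1) scale was 2.76 (SE 0.062, limma adjusted p = 4.88e-12). With 0 reads in one group that value is set by the pseudocount: it was 3.65 with a pseudocount of 0.5, 5.88 with 0.1, and 8.17 by limma voom on recovered reads. Csf3 passed the filter only through the libraries labelled CKO, so once it was tested it had to differ.

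Csf2 and Il34 were at the limit of detection. Csf2, the gene of GM-CSF (ENSMUSG00000018916, chromosome 11, 54247271 to 54249667), had 4, 1 and 3 reads in the libraries labelled CKO and 1, 1 and 0 reads in those labelled WT. That is 0.292, 0.0811 and 0.211 FPKM in the libraries labelled CKO and 0.0679, 0.0697 and 0 FPKM in those labelled WT. The groups did not overlap, but by less than 1 read, and the ratio of read sums per assigned read, 4.21, had a 95% exact binomial interval from 0.841 to 40.7, which covers counting error only. Without the filter limma gave an adjusted p = 0.132. An antisense gene is annotated over Csf2, and since the sources used here do not say whether counting used strand, reads of the pair cannot be told apart.

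Il34, the second ligand of CSF1R, which neurons and keratinocytes make (ENSMUSG00000031750, chromosome 8, 110741829 to 110805924), had 0, 0 and 2 reads in the libraries labelled CKO and none in those labelled WT. The limit from a count of 0 was 0.0831 to 0.0993 FPKM per library, so a difference in Il34 was not detectable at this depth. A pair of antisense genes is annotated over Il34 as well. Of the ligands of CSF1R, Csf1 was thus the only one measured above that limit in either group.

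**Figure D1:**
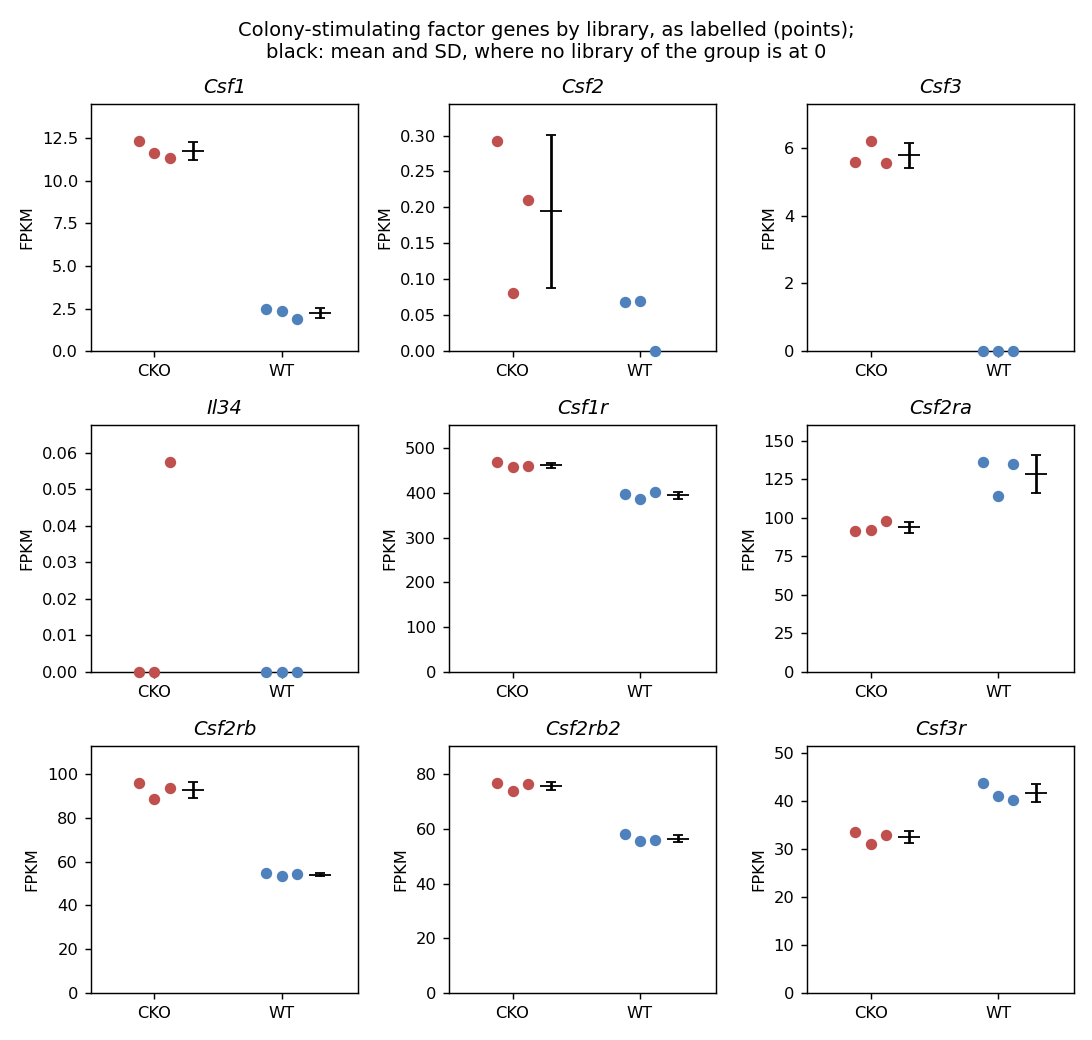
FPKM of each of the 9 genes in each library, with the libraries labelled CKO (red) to the left of those labelled WT (blue); black marks give the mean and SD of 3 libraries, drawn only where no library of a group is at 0. Every vertical axis is linear from 0 and has its own range: Csf1 and Csf3 separate most widely, Csf2 and Il34 stay under 0.3 FPKM, and Csf2ra and Csf3r are lower in the libraries labelled CKO.

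Receptor transcripts were far more abundant than ligand transcripts in both groups. The 5 receptor genes summed to 743 to 766 FPKM in the libraries labelled CKO and to 649 to 689 FPKM in those labelled WT. Csf1r, the receptor of CSF1 and IL-34 (ENSMUSG00000024621, chromosome 18, 61100598 to 61132149), led in each library. It read 468, 458 and 461 FPKM in the libraries labelled CKO, against 397, 386 and 401 FPKM in those labelled WT. The lowest value of the libraries labelled CKO was above the highest of those labelled WT, with means of 462 ± 5.51 and 395 ± 7.97 FPKM (SD, n = 3 each). The ratio was 1.17 and the log2 difference 0.23 (SE 0.026, limma adjusted p = 7.84e-06).

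That small rise of Csf1r depended on scaling. After median-of-ratios scaling, which moved all log2 differences by a median of 0.15, it was 0.40, and after quantile normalization, with a median shift of 0.10, it was -0.02 and was not called (limma adjusted p = 0.640). Csf1r stood at place 66 by level in the libraries labelled CKO and at place 67 in those labelled WT, so by rank among genes it was at nearly the same place. Hmgxb3 is annotated on the opposite strand across part of Csf1r and read 3.67 ± 0.125 FPKM in libraries labelled CKO and 3.81 ± 0.129 FPKM in those labelled WT (SD, n = 3 each).

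The chains of the GM-CSF receptor moved in opposite directions. Csf2ra, the chain that binds GM-CSF (ENSMUSG00000059326, chromosome 19, 61223957 to 61228429), read 91.4, 92.2 and 97.6 FPKM in the libraries labelled CKO, against 136, 114 and 135 FPKM in those labelled WT. All libraries labelled CKO were below all labelled WT, of which replicate 2 was the lowest. The difference was -0.44 on the log2 scale (SE 0.060, limma adjusted p = 3.34e-05), or -0.28 after median-of-ratios scaling.

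Csf2rb, the signalling chain (ENSMUSG00000071713, chromosome 15, 78325752 to 78353847), read 95.9, 88.7 and 93.8 FPKM in the libraries labelled CKO, against 54.7, 53.3 and 54.3 FPKM in those labelled WT. The groups lay far apart relative to their spread, with a ratio of means of 1.72 and a log2 difference of 0.77 (SE 0.035, limma adjusted p = 2.27e-09). Within each library Csf2ra was lower than the sum of both beta chain genes by 0.80 to 0.92 on the log2 scale in the libraries labelled CKO, and was higher than that sum by 0.06 to 0.29 in those labelled WT. These ratios need no scaling between libraries, but their size depends on the gene lengths used. Per base of the longest protein-coding transcript, a scale chosen after seeing the data, Csf2ra, Csf2rb and Csf2rb2 averaged 146, 138 and 75.7 FPKM in libraries labelled CKO. In those labelled WT they averaged 199, 80.3 and 56.5 FPKM. The sum also includes Csf2rb2, whose product works with the interleukin-3 receptor alone. Against Csf2rb alone, Csf2ra was lower in CKO replicate 1 and higher in all other libraries.

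Csf2rb2, the interleukin-3 receptor chain found in mice (ENSMUSG00000071714, chromosome 15, 78282507 to 78305721), rose as well. It read 76.7, 74.0 and 76.3 FPKM in the libraries labelled CKO, against 58.0, 55.6 and 55.8 FPKM in those labelled WT, without overlap. The log2 difference was 0.42 (SE 0.032, limma adjusted p = 2.26e-07). Its 95% confidence interval, 0.35 to 0.49, lay below that of Csf2rb, 0.69 to 0.84. As a share of the summed FPKM of the pair, Csf2rb2 made up 44.5%, 45.5% and 44.9% in the libraries labelled CKO and 51.5%, 51.1% and 50.7% in those labelled WT. The shares did not overlap, and an exact two-sided permutation test returned p = 0.1 (adjusted p = 0.1 over 9 such quantities); with 3 libraries a group no smaller p is possible.

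The 2 beta chain genes lie next to each other on opposite strands and are close copies. Their longest protein-coding transcripts, 4900 bases for Csf2rb and 4740 for Csf2rb2 in GENCODE M21, were 92.2% identical over 4619 aligned bases. Of the 50-base stretches of the Csf2rb transcript 18.4% occurred unchanged in Csf2rb2, and 19.0% the other way, so some reads could belong to either gene and the split between them is uncertain. Their order by level also depended on the gene length used. The deposited values rest on a listed length of 7277 bases for Csf2rb. Per base of the longest transcript, Csf2rb2 was 35.5% of the pair in libraries labelled CKO and 41.3% in those labelled WT. The difference in its share, -6.15 percentage points as deposited, was -5.82 points on that scale, which was chosen after seeing the data.

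Csf3r, the receptor of G-CSF (ENSMUSG00000028859, chromosome 4, 126024550 to 126044440), fell. It read 33.4, 31.0 and 32.9 FPKM in the libraries labelled CKO, against 43.6, 40.9 and 40.2 FPKM in those labelled WT. The groups did not overlap, and the log2 difference was -0.35 (SE 0.042, limma adjusted p = 1.27e-05), or -0.18 after median-of-ratios scaling. G-CSF and its receptor thus moved in opposite directions between the groups.

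Neutrophils carry much CSF3R. The summed level of 13 neutrophil markers was 244 to 250.4 FPKM in the libraries labelled CKO and 639.6 to 939 FPKM in those labelled WT. Of these markers 10 were tested, 8 lower and 2 higher. However, 5 of the 8 passed the filter only through the libraries labelled WT, which favoured that direction in advance, so their calls lend it no support. The most abundant in libraries labelled CKO was Lcn2, at 152 ± 7.25 FPKM, against 21.7 ± 4.54 FPKM in libraries labelled WT (SD, n = 3 each). S100a9 averaged 37.3 ± 5.10 FPKM in libraries labelled CKO and 425 ± 85.0 FPKM in those labelled WT, and S100a8 33.4 ± 3.48 FPKM in libraries labelled CKO and 153 ± 25.9 FPKM in those labelled WT (SD, n = 3 each). Ly6g and Retnlg had 0 reads in all libraries labelled CKO, and Ly6g also in 2 of the 3 labelled WT. The part of neutrophil RNA in the Csf3r result was not tested. In bulk RNA, fewer cells of a type and less RNA per cell cannot be told apart.

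Markers of other cells that make or receive these factors were measured too, and the monocyte markers were the most abundant of them. T and NK cells can make GM-CSF: among 9 measured markers just 1 was tested, and it was lower. The sum was 1.37 to 1.74 FPKM in the libraries labelled CKO and 5.31 to 5.55 FPKM in those labelled WT. The tested marker was Cd4, at 0.483 ± 0.0431 FPKM in libraries labelled CKO and 3.94 ± 0.511 FPKM in those labelled WT (SD, n = 3 each). It made up most of the sum in libraries labelled WT. Fibroblasts and smooth muscle can make CSF1: their 9 markers summed to 4.90 to 5.13 FPKM in the libraries labelled CKO and 1.62 to 2.49 FPKM in those labelled WT. Of these 2 were tested and both were higher, Acta2 and Pdgfrb, which made up most of the sum in libraries labelled CKO. The 7 markers under 1 FPKM in both groups went both ways. Endothelial cells are another source of CSF1: of their 6 markers 1 was higher and 2 lower. They summed to 7.83 to 9.02 FPKM in the libraries labelled CKO and 26.4 to 27.1 FPKM in those labelled WT. Vwf made up most of the sum in libraries labelled WT, at 19.8 ± 0.165 FPKM, against 2.78 ± 0.264 FPKM in those labelled CKO (SD, n = 3 each). The part of these 3 sources in the Csf1 and Csf2 results was not tested. Monocytes carry CSF1R and CSF3R, and of their 7 markers 6 were higher and 1 lower. Their sum was 509.9 to 549 FPKM in the libraries labelled CKO and 45.7 to 54.3 FPKM in those labelled WT. Hp made up most of the sum in libraries labelled CKO, at 390 ± 9.25 FPKM, against 14.1 ± 1.38 FPKM in those labelled WT (SD, n = 3 each). The lower marker was Ccr2, named after its values were seen. It averaged 0.636 ± 0.0788 FPKM in libraries labelled CKO and 6.35 ± 0.311 FPKM in those labelled WT (SD, n = 3 each). The part of monocytes in the receptor results was not tested. Of 8 dendritic cell markers 2 were tested and both were higher. The 8 summed to 22.0 to 25.8 FPKM in the libraries labelled CKO and 3.07 to 3.63 FPKM in those labelled WT. Ccr7 made up most of the sum in libraries labelled CKO, at 21.1 ± 1.81 FPKM, against 0.742 ± 0.0497 FPKM in those labelled WT (SD, n = 3 each). The 6 markers under 1 FPKM in both groups went both ways. The 6 B and plasma cell markers summed to 1.63 to 2.31 FPKM in the libraries labelled CKO and 3.97 to 5.97 FPKM in those labelled WT, with 2 lower, and the 8 mast cell, basophil and eosinophil markers to 2.76 to 3.25 FPKM in the libraries labelled CKO and 12.3 to 13.8 FPKM in those labelled WT, with 3 lower. Many of these markers passed the filter through 1 group alone, which favoured their direction in advance. Cd4, Ccr2, the 2 tested B and plasma cell markers and 2 of the 3 tested mast cell, basophil and eosinophil markers passed through WT alone. Acta2, Pdgfrb, Ccr7, 1 other monocyte marker and 1 endothelial marker passed through CKO alone. The directions of these markers are therefore no independent result.

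**Figure D2:**
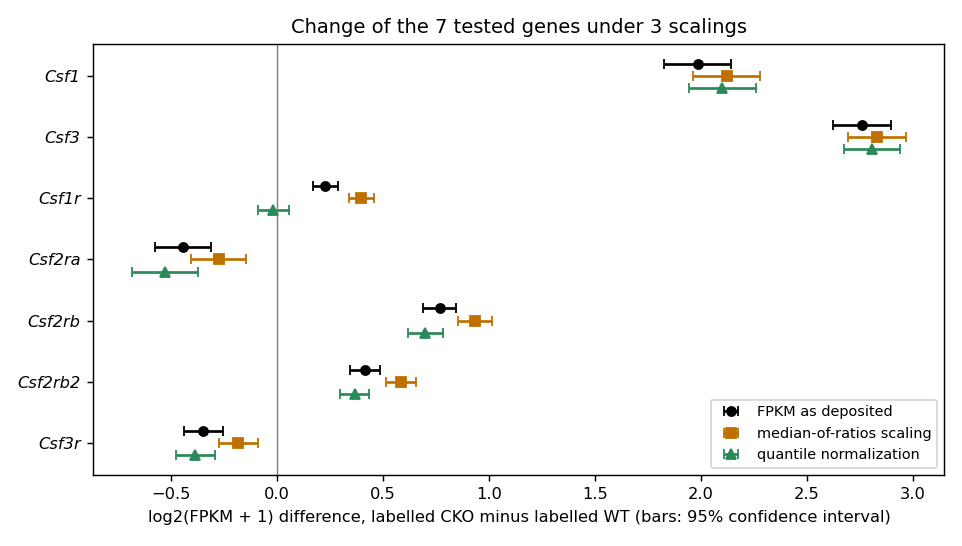
Log2 difference, labelled CKO minus labelled WT, of the 7 tested genes with 95% confidence intervals, on FPKM as deposited (black circles), after median-of-ratios scaling (orange squares) and after quantile normalization (green triangles). Csf1r, at 0.23 as deposited, lies at -0.02 after quantile normalization, and the other 6 genes stay on the same side of 0 under all 3 scalings.

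The makeup of the receptor genes differed between the groups without overlap. Csf1r made up 60.5% to 61.5% of the summed receptor FPKM in the libraries labelled CKO and 57.6% to 59.4% in those labelled WT. Csf2ra made up 11.9% to 12.8% in the libraries labelled CKO and 17.5% to 19.7% in those labelled WT. Csf2rb took 11.9% to 12.5% in libraries labelled CKO and 7.90% to 8.21% in those labelled WT, and Csf3r 4.17% to 4.36% in libraries labelled CKO and 5.85% to 6.33% in those labelled WT. None of these shares overlapped between the groups, each with an exact permutation p = 0.1, the smallest possible. Csf1r exceeded Csf2rb by 2.32 ± 0.044 on the log2 scale in libraries labelled CKO and by 2.87 ± 0.017 in those labelled WT (SD, n = 3 each; exact permutation p = 0.1).

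In order of level, Csf1r came first in both groups. In libraries labelled CKO Csf2ra followed, at 93.7 ± 3.36 FPKM, and Csf2rb, at 92.8 ± 3.74 FPKM, did not differ from it beyond the spread (SD, n = 3 each). Csf2rb2, Csf3r, Csf1 and Csf3 came next, each below the one before in every library. In libraries labelled WT Csf2ra stood alone in second place at 128 ± 12.5 FPKM, and Csf2rb2 and Csf2rb were close, at 56.5 ± 1.34 and 54.1 ± 0.730 FPKM (SD, n = 3 each), followed by Csf3r and Csf1. Per base of the longest transcript Csf2rb was instead at 80.3 ± 1.08 FPKM in those libraries, above Csf2rb2, so the order of this pair holds only for the listed lengths.

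**Figure D3:**
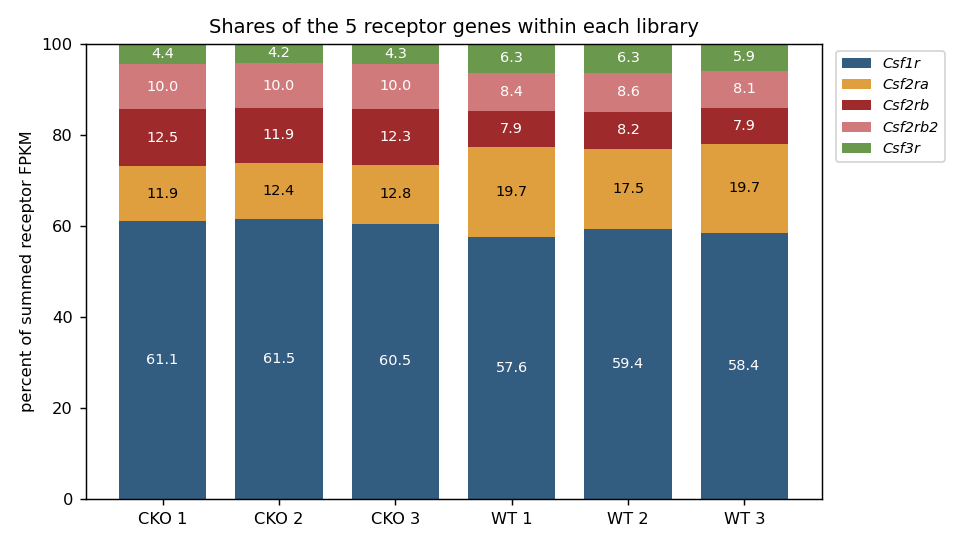
Share of each of the 5 receptor genes in their summed FPKM, in percent, for each library, with the 3 libraries labelled CKO on the left. Csf2ra takes 11.9% to 12.8% in the libraries labelled CKO and 17.5% to 19.7% in those labelled WT, and Csf2rb and Csf2rb2 take more in the libraries labelled CKO.

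The transcripts differ in 2 sequence features that bear on RNA stability and methylation. ATTTA, the core of AU-rich elements through which many cytokine mRNAs are degraded, occurred 10 times in the 800-base Csf2 transcript and 6 times in the 1413-base Csf3 transcript, that is 12.5 and 4.25 times per kb. The median over 9934 tested genes was 0.828 per kb. Csf1 had 0.958 per kb, Il34 1.11 and Csf1r 0.638, and the transcripts of Csf2ra, Csf2rb and Csf3r held none. GGACT, letters in which N6-methyladenosine often lies, occurred 0.708 times per kb in Csf3 and 3.90 times per kb in Il34, with the others between, against a median of 1.05 over all tested genes. These are counts of letters in the longest protein-coding transcript, and methylation was not measured here.

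Signalling genes below the receptors went both ways. Of 16 genes of proximal CSF1R signalling 6 were higher and 8 lower, with a median log2 difference of -0.14, beside -0.14 over all genes tested. Src, a tyrosine kinase, rose by 1.80 on the log2 scale and averaged 15.1 ± 0.589 FPKM in libraries labelled CKO and 3.62 ± 0.147 FPKM in those labelled WT (SD, n = 3 each). Tyrobp, an adaptor that links CSF1R to Syk, fell to 346 ± 18.4 FPKM in libraries labelled CKO, against 1066 ± 14.1 FPKM in those labelled WT (SD, n = 3 each). Plcg2, a phospholipase, changed by -0.79.

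Among 12 JAK-STAT genes of the beta common and G-CSF receptors 10 were tested, 6 higher and 3 lower, with a median of 0.56. Socs3, the feedback inhibitor that binds CSF3R, averaged 176 ± 1.57 FPKM in libraries labelled CKO and 2.47 ± 0.0588 FPKM in those labelled WT (SD, n = 3 each). Jak2, the kinase bound to the beta common chain, rose by 3.16, Socs1, another feedback inhibitor, by 3.85, and the kinase Pim1 by 1.10. In the other direction Stat5a and Stat5b, the main transcription factors of GM-CSF signalling, changed by -0.91 and -0.64. These 2 genes were named after their values were seen.

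Other growth factor systems of blood cells were low. Of 14 such genes 5 were tested, 1 higher and 3 lower, and Il3, Il5, Thpo and Epo had no read in any library. Il3ra, the partner chain of Csf2rb2 and of the beta common chain for interleukin-3, fell to 8.84 ± 0.655 FPKM in libraries labelled CKO, against 18.2 ± 0.753 FPKM in those labelled WT (SD, n = 3 each). Kit, a relative of CSF1R, changed by -1.46 and its ligand Kitl by -0.85, and Pdgfrb, another relative, by 0.97.

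Genes around CSF1R cleavage and IL-34 binding were measured too. Of 6 genes 5 were tested, 2 higher and 2 lower, or 3 higher after median-of-ratios scaling. Sdc1, a proteoglycan to which IL-34 binds, rose by 1.23, and Rhbdf2, the partner protein of the sheddase ADAM17, by 1.11. Adam10, another sheddase, changed by -0.45 and Timp3, an inhibitor of ADAM17, by -0.75. Adam17 itself, named after its values were seen, read 67.7 ± 1.65 FPKM in libraries labelled CKO and 66.4 ± 1.14 FPKM in those labelled WT (SD, n = 3 each; limma adjusted p = 0.423).

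Of 9 factors that bind the Csf1r locus 3 were higher and 4 lower. Ets2 rose by 2.62 and Fos by 0.75, and Egr2 and Cebpa changed by -2.23 and -1.91. Cebpb, named after its values were seen, rose by 2.12. It averaged 241 ± 32.1 FPKM in libraries labelled CKO and 55.6 ± 12.7 FPKM in those labelled WT (SD, n = 3 each). Spi1, which encodes PU.1, the factor that macrophage identity and Csf1r expression require, averaged 135 ± 1.78 FPKM in libraries labelled CKO and 139.7 ± 2.81 FPKM in those labelled WT (SD, n = 3 each; limma adjusted p = 0.168); it was named after its values were seen.

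Of 12 genes that alveolar macrophages express under GM-CSF 10 were tested, 9 lower and 1 higher, with a median of -1.64. Pparg, a nuclear receptor that GM-CSF induces in lung macrophages, fell to 0.647 ± 0.0293 FPKM in libraries labelled CKO, against 22.4 ± 0.247 FPKM in those labelled WT (SD, n = 3 each). The fatty acid carriers Fabp4 and Fabp5 changed by -2.38 and -1.72. Marco, a scavenger receptor, went the other way, at 68.0 ± 2.40 FPKM in libraries labelled CKO and 0.468 ± 0.0812 FPKM in those labelled WT (SD, n = 3 each).

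Genes of osteoclasts, the bone-resorbing cells that need CSF1 and RANKL, were mixed, with 2 higher and 3 lower of 7 tested. Atp6v0d2, a proton pump subunit, changed by -4.44, the integrin Itgb3 by -1.42 and the transcription factor Nfatc1 by -1.02, and Acp5, the tartrate-resistant phosphatase, rose by 1.11. Of 11 resident macrophage genes 9 were tested, 7 lower and 1 higher, with a median of -1.08. Gas6, a bridge to dying cells, changed by -4.26, the mannose receptor Mrc1 by -3.41, and the transcription factor Maf by -0.99. None of these lists was tested as a list, and some share members with the marker lists. Marco, Socs1 and Pdgfrb passed the filter only through the libraries labelled CKO, and Pparg and Kit only through those labelled WT. Also through WT alone passed 3 of the 9 lower alveolar macrophage genes, Pparg among them, and 1 of the 7 lower resident macrophage genes. The filter favoured these directions in advance, so these calls lend them no support.

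**Figure D4:**
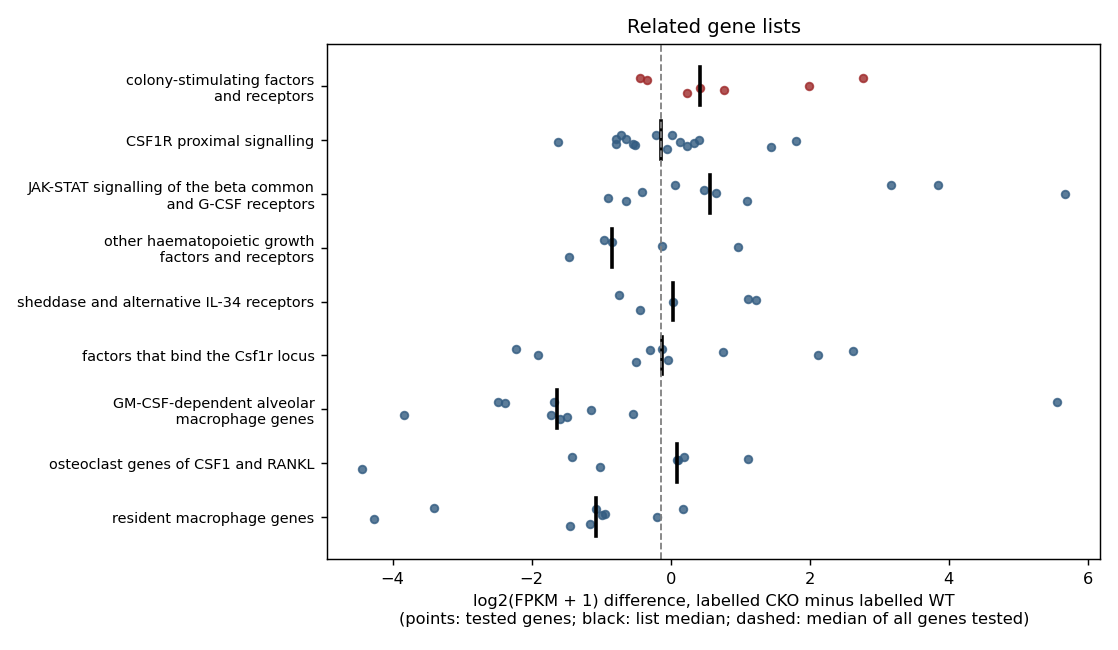
Log2 difference, labelled CKO minus labelled WT, of each tested gene (points) of the 9 colony-stimulating factor and receptor genes (red) and of 8 related lists (blue), with the list median (black bar) and the median of all genes tested (dashed, -0.14). The alveolar macrophage and resident macrophage lists lie mostly to the left, with medians of -1.64 and -1.08, and the JAK-STAT list, with a median of 0.56, reaches furthest right with Socs3.

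The genes whose profile over the 6 libraries was nearest to each member were found by the root-mean-square difference of centred log2(FPKM + 1) values. Nearest to Csf1 were Dgat2 and Tnfrsf8, at 0.051 and 0.052. Dgat2, the last enzyme of triglyceride synthesis, averaged 8.78 ± 0.248 FPKM in libraries labelled CKO and 1.53 ± 0.303 FPKM in those labelled WT (SD, n = 3 each). For Csf2rb they were Gas7 and Sbno2, at 0.021 and 0.024, for Csf2rb2 Bud31 and Tlr2, at 0.011 and 0.012, and for Csf1r Pomt2 and Itpr1, at 0.0054 and 0.016. For Csf2ra they were Xlr4a and E2f6, both at 0.025, and for Csf3r Xpo5 and Endod1, both at 0.019. For Csf3 none is given, since the pseudocount sets the size of its profile. Within 0.1 of Csf1 there were 27 genes, against 1414 for Csf1r and 1568 for Csf3r. On this scale the nearest genes share the libraries and the group difference with the member. The pseudocount of 1 shrinks changes of low genes, so a near profile does not mean an equal ratio of FPKM. Pomt2 averaged 2.72 ± 0.0417 FPKM in libraries labelled CKO and 2.17 ± 0.0734 FPKM in those labelled WT (SD, n = 3 each). Csf1r averaged 462 and 395 FPKM in these groups.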

How the data were processed

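Values are FPKM, deposited by the authors as 1 table per library, meaning that a read count was divided by gene length and by the reads summed over all listed genes. The unit is per the file headers, and the scaling was found from the values. Build mm10 is given per the submitters' processing notes, which also name Cufflinks, DESeq2 1.22.1, GATK 4.0.11.0, StringTie 1.3.4d, HISAT2 2.1.0, featureCounts 1.6.2 and fastp 0.19.3 without saying what each was used for. Libraries were stranded mRNA libraries, per the labels' protocols. FPKM times length gave whole multiples of 1 step for 100% of values within 0.01 reads, so reads were recovered. These totals set the depth, 15422154 to 18418903 reads, at which 3 reads of a 1 kb gene are 0.163 to 0.195 FPKM; floors and intervals cover counting error only.

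Genes with at least 1 FPKM in at least 3 libraries were tested on log2(FPKM + 1) with limma 3.58.1 (eBayes with trend, group as the only term) in R 4.3.3, adjusted by the Benjamini-Hochberg method over all genes and called under 0.05. Ratios within libraries had exact two-sided permutation tests (Python 3.11.15, numpy 2.4.6, scipy 1.17.1). The limma step was also run on simulated reads with planted changes, which checks the code and not the calls made here. Between libraries, chi-square per degree of freedom was 2.16 to 3.18 within groups, so no pair agreed within counting noise. Groups came from sample titles.

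The members and lists were chosen with earlier results of these data known. Named are the 9 members, Alkbh5 and Apoe, up to 4 tested genes with the smallest p per list, marker genes by level, and the 2 genes nearest to each member other than Csf3; genes outside this rule are marked where they appear, and some genes that it names are not reported here. Promoters came from RefSeq, transcripts and overlaps from GENCODE M21, where 21817 identifiers matched, 21604 with the same coordinates. Alternatives were other pseudocounts (0.1 and 0.5), filters, scalings, limma without trend, limma voom on recovered reads, a threshold of 0.01, the replicate number as a block, and each library left out with the tested genes held; the transcript lengths were added after seeing the data.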

Additional observations from a re-analysis of the deposited data

How the results depend on the processing

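Of 111 refits of single genes of the family, 110 kept direction and call. The exception was Csf1r after quantile normalization, at -0.0176 (limma adjusted p = 0.640, against at most 6.48e-05 with a library left out); the cause was not tested. Each alternative called 5 of the genes higher, except 4 after quantile normalization and 4 among genes with a mean of at least 5 FPKM, where Csf3 left the test, and 2 lower in all. Over all genes 3038 were called higher and 5031 lower. Among genes with a mean of at least 5 FPKM, 3185 were called lower, because fewer genes were tested. Median-of-ratios scaling called 3952 higher and 3962 lower, so that higher genes made up 49.9% of calls instead of 37.7%. With 1 library left out, 2910 to 2961 genes were higher and 4853 to 4952 lower, with 5 and 2 of the family. The log2 difference then ranged from 1.90 to 2.04 for Csf1, 2.72 to 2.78 for Csf3 (at a pseudocount of 1), 0.21 to 0.24 for Csf1r, -0.53 to -0.40 for Csf2ra, 0.74 to 0.80 for Csf2rb, 0.40 to 0.44 for Csf2rb2 and -0.37 to -0.31 for Csf3r. The Csf2rb2 share then differed by -6.43 to -5.90 points and Csf1r relative to Csf2rb by -0.58 to -0.53. Same-numbered libraries did not deviate together (correlations -0.039 to 0.019); with the replicate block 3018 genes were higher and 5023 lower, with 5 and 2 of the family. Of 536 counts over the related and marker lists 16 moved by over 1.5 times, all of them under another filter or threshold. Depth limits Csf2 and Il34, with at most 4 reads a library.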
